A study of Mus musculus with 17 samples.

Results

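The comparison described here sets 5 libraries of newborn offspring of high-fat-fed dams (HFD, postnatal day 0, P0) against 5 libraries of newborn offspring of chow-fed dams, 10 of the 17 libraries of the series. The other 7 libraries are from day 21 (P21) and enter only where the ages are compared. All 17 come from POMC-RiboTag mice, in which cells that use or have used the Pomc gene carry an HA-tagged ribosomal protein, so that precipitating the tag from mediobasal hypothalamus enriches the RNA those cells translate. Because the tag marks cells by their history of Pomc activity, the driver does not limit the RNA to neurons that still express Pomc. The diet was the dam's: females started chow or a 45% fat diet at 6 weeks of age, were mated 4 weeks later and stayed on it until P21, so a P0 offspring had met it only through the dam. The labels number the libraries as biological replicates and name neither animals, litters, pools, sex nor library batch. The p-values therefore measure the spread between these libraries, which may in part be technical.

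POMC neurons of the arcuate nucleus release melanocortin peptides that restrain feeding, and they are balanced by neighbouring neurons that make AgRP and NPY. Like other neurons they fire through potassium, sodium, calcium and pacemaker channels, sense their surroundings through ligand-gated channels and G protein-coupled receptors, and release peptide and transmitter through vesicle proteins. Around birth their axons are still growing, under the control of transcription factors, chromatin proteins and guidance molecules.

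The P0 libraries held 27.2 ± 3.20 M gene-assigned reads in chow and 26.6 ± 5.34 M in HFD (mean ± SD, n = 5 each), from 22.7 to 34.9 M over the 10 libraries. Values are in the scaled, counts-per-million-like unit of the deposited table, and differences are HFD minus chow on log2(value + 1), a scale that understates the change of low genes. One read was worth 0.029 to 0.042 units, so a value of 0 allows up to 3 reads, or 0.087 to 0.127 units, for counting error only. HFD replicate 5 stood apart from the other HFD libraries, with Pomc at 1057 against 90.7 to 246, Npy at 179 against 62.9 to 81.1 and Nptx2 at 309 against 37.0 to 76.4. Calls are therefore also given without it, as are the group medians and single differences that it moved most. Its Pomc value lay within the chow range of 146 to 1308, above which no HFD library lay. Leaving it out keeps only HFD libraries with Pomc at 90.7 to 246. In calls without it diet and Pomc level are thus partly mixed, and their parts were not tested.

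Pomc itself was measured at 146, 224, 657, 891 and 1308 in chow and at 90.7, 246, 102, 181 and 1057 in HFD, so the groups overlapped (-1.16, SE 0.66, adjusted p = 0.621 by limma with Benjamini-Hochberg adjustment). In bulk RNA, fewer cells of a type and less RNA per cell cannot be told apart. Of 11 lists of cell type markers, none separated the diets by its summed level. Of their 84 tested genes limma called 0, and edgeR on recovered reads called 0. Among the 84, 6 had an unadjusted p under 0.05, against 1307 of all 14086 tested genes. The 14 POMC-neuron genes summed to 1697 to 4087 in chow and 1745 to 4061 in HFD. Of these 14, 9 were below 0 (median -0.44), and 11 without HFD replicate 5 (median -0.60). The 12 genes of astrocytes, radial glia and tanycytes summed to 1488 to 2709 in chow and 1267 to 2109 in HFD. Of 9 tested oligodendrocyte-lineage genes 8 were below 0 (median -0.35, and -0.34 without HFD replicate 5), with sums of 437 to 1017 in chow and 335 to 462 in HFD. Of 13 genes of other hypothalamic neurons 12 were below 0 (median -0.21), but 8 without HFD replicate 5 (median -0.03). The part of these lists in the results was not tested. The 3 anterior pituitary markers of the table had a summed level of at most 3.84.

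At birth, 40 genes were lower and 1 was higher in HFD offspring out of 14086 tested (limma, adjusted p under 0.05), which is 0.284% and 0.0071% of tested genes. The lower genes encode neuronal membrane proteins (Ano8, Hcn2, Kcnk12, Grin2d, Nptxr, Gpr27), vesicle proteins (Syn2, Rims4), signalling enzymes (Dapk3, Prkaca) and proteins used in most cells (Alyref, Mtch1, H1fx, Ube2m). The 1 higher gene was Col11a2, a chain of fibrillar type XI collagen. In 39 of the 40 the log2 difference was below -1, and in 11 it was below -2. The groups did not overlap in any of the 41, but these were picked by a test on the same values, which favours such genes. Over all tested genes 1.71% had all 5 HFD libraries below all 5 chow libraries and 0.738% the reverse. An unadjusted p under 0.05 was reached by 1307 genes, 762 lower and 545 higher.

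**Figure D1:**
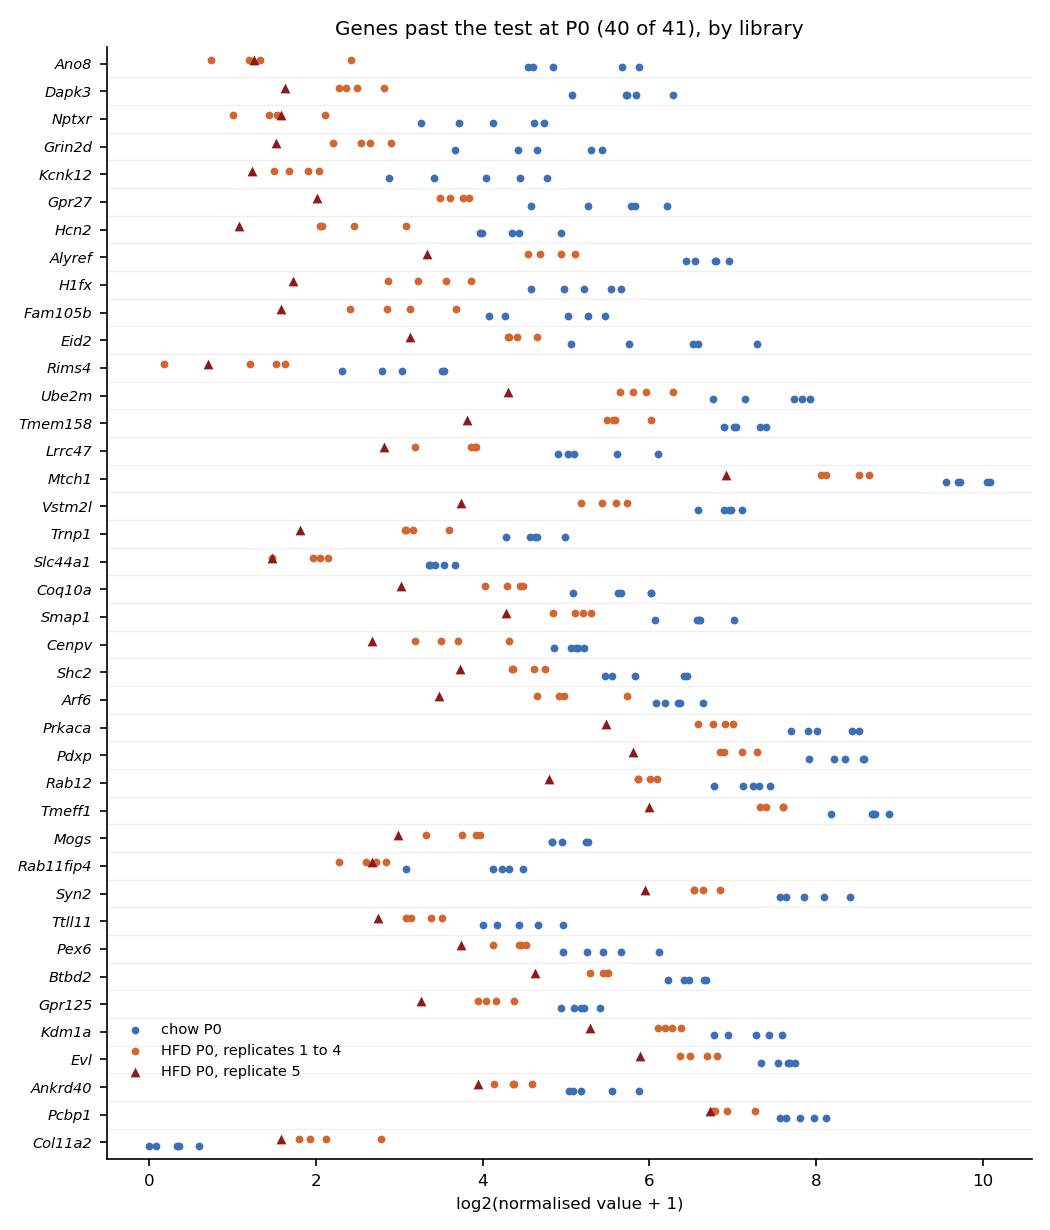
Values of 40 of the 41 genes past the test at P0, as log2(normalised value + 1), 1 point per library, with chow in blue, HFD in orange and HFD replicate 5 as a dark triangle. The chow and HFD points do not overlap in any row, and HFD replicate 5 is the leftmost point in most of them, as in Dapk3 at 2.11 units.

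HFD replicate 5 was the lowest of the 10 libraries in 35 of the 40 lower genes. Without it all 41 genes were still past the test, and the count was 109 lower and 26 higher of 14269 tested (0.764% and 0.182%). The count was 10 (8 lower, 2 higher) when all 17 libraries shared 1 fit. Reads were recovered in 5 of the P0 libraries, chow replicates 2, 4 and 5 and HFD replicates 1 and 4. There edgeR called 3 genes, Dapk3, Ano8 and Alyref, all lower. With so few libraries, a count of 0 by edgeR does not show that no gene differs.

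Sequence is shown first, because the transcripts of the lower genes shared a feature of it. For each transcript, untranslated parts included, the share of 100-base windows with 80% or more G and C was taken as a measure of GC-dense stretches. Such a window was present in 36 of the 40 lower genes (90%), against 25.4% of the 13531 tested genes with a transcript model. How many of the 40 have such a window within the coding sequence was not counted. The feature was looked for after the calls had been seen, so these shares are a description. Below stand the richest 100-base coding windows, each inside 1 coding exon, of 5 lower genes and of a paralog of 4 of them that was not past the test. They were chosen to show what the windows look like within a protein family. G and C are in capitals, and all windows read 5′ to 3′ on the coding strand.
Hcn2: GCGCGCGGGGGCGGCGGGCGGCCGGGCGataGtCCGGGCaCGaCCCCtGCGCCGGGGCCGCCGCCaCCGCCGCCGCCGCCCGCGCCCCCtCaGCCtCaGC
Hcn4: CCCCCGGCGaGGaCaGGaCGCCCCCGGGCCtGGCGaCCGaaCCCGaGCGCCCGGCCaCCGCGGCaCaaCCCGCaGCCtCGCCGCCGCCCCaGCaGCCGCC
Grin2d: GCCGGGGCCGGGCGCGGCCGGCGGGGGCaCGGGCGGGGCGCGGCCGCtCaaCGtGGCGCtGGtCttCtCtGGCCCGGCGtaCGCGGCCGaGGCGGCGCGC
Grin2b: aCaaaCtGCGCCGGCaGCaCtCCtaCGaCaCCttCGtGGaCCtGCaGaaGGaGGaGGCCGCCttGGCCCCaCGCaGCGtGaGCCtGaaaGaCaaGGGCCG
Dapk3: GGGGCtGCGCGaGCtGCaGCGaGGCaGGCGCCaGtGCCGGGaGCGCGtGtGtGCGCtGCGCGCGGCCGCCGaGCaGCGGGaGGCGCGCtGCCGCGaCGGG
Dapk1: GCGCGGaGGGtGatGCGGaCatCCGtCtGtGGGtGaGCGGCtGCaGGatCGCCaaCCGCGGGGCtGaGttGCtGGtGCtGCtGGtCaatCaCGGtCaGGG
Syn2: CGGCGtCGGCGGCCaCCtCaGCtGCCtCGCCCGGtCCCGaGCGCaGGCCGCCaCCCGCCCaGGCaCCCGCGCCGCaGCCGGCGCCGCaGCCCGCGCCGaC
Syn3: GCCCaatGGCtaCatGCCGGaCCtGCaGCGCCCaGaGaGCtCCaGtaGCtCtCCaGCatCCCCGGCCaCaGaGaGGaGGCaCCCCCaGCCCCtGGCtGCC
Alyref: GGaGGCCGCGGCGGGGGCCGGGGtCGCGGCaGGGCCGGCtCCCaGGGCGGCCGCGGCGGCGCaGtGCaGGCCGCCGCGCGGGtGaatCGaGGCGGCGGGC
In GRCm38 (mm10) these lie at chr10:79716675-79716774 (Hcn2, plus strand, exon 1), chr9:58823927-58824026 (Hcn4, plus strand, exon 1), chr7:45866373-45866472 (Grin2d, minus strand, exon 1), chr6:135732561-135732660 (Grin2b, minus strand, exon 14) and chr10:81192593-81192692 (Dapk3, plus strand, exon 9). The others lie at chr13:60761053-60761152 (Dapk1, plus strand, exon 26), chr6:115135211-115135310 (Syn2, plus strand, exon 1), chr10:86467140-86467239 (Syn3, minus strand, exon 2) and chr11:120598179-120598278 (Alyref, minus strand, exon 1). G and C made up 88% of the window in Hcn2, 86% in Grin2d, 82% in Dapk3, 85% in Syn2 and 87% in Alyref. The windows of the paralogs held 83% in Hcn4, 65% in Grin2b, 67% in Dapk1 and 69% in Syn3. Hcn4 thus has a coding stretch nearly as rich as that of Hcn2, but over the whole transcript 1.43% of windows were GC-dense in Hcn4 and 16.1% in Hcn2. Syn3 passed the test when HFD replicate 5 was left out, although its transcript has no GC-dense window.

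Ion channels set how readily a neuron fires. Of 179 tested channel genes, 3 fell and none rose past the test: Ano8, Hcn2 and Kcnk12. Over all tested genes 0.284% were lower past the test. The median difference of the 179 was -0.09, against -0.002 for all tested genes, and 3.35% of them had no overlap in the lower direction, against 1.71% of all. Ano8, an anoctamin of contacts between the endoplasmic reticulum and the plasma membrane, was measured at 23.4, 27.8, 22.3, 50.2 and 57.7 in chow and at 1.29, 0.68, 4.35, 1.52 and 1.40 in HFD. All HFD libraries were low, replicate 3 the least so, and the difference was -3.72 (SE 0.35, adjusted p = 0.000221, limma). Hcn2, a pacemaker channel opened by hyperpolarisation and helped by cyclic AMP, was at 19.4, 29.6, 14.9, 14.7 and 20.6 in chow and at 4.50, 7.5, 3.14, 3.20 and 1.11 in HFD. It fell by 2.19 (SE 0.34, adjusted p = 0.0119, limma), with HFD replicate 5 the lowest. Kcnk12, of the two-pore-domain potassium channel family, was at 6.38, 15.5, 9.71, 20.9 and 26.3 in chow and at 2.21, 1.82, 2.76, 3.12 and 1.35 in HFD. The fall of 2.24 (SE 0.34, adjusted p = 0.0119, limma) left every HFD library under the lowest chow library. With a correction for exonic GC content the Kcnk12 difference was -1.92 and did not pass (adjusted p = 0.0629, limma).

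The paralogs of these channels were not past the test. Of the HCN channels, Hcn4 was at -0.20 (0.04 without HFD replicate 5) and Hcn3 at -0.37 (SE 0.14, adjusted p = 0.399, limma), and the libraries of each overlapped between the diets. The 7 other tested anoctamins ran from -0.77 in Ano4 (SE 0.40) to 0.19 in Ano7. The 7 other tested two-pore-domain channels ran from -0.52 in Kcnk4 to 0.34 in Kcnk6. At most 2.13% of windows were GC-dense in any of these paralogs, a share reached by Kcnk3, against 7.76% in Ano8 and 10.1% in Kcnk12.

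The 3 channel genes past the test were all among the 38 GC-rich channel genes, where GC-rich means the top 10% of tested genes by exonic GC content (57.58% or more). None of the other 141 channel genes was past the test, and their median was -0.06 against -0.13 in the GC-rich ones (-0.11 and -0.09 without HFD replicate 5). Outside that set the lowest p-values were those of Lrrc8d, a subunit of volume-regulated anion channels, at -0.93 (SE 0.26, adjusted p = 0.215, limma), and of Cacna2d3, an auxiliary calcium channel subunit, at -0.78 (SE 0.22, adjusted p = 0.216, limma). Asic2, a proton-gated sodium channel picked out after its values were seen because its libraries did not overlap, stood at -0.78 (adjusted p = 0.0682, limma) and passed without HFD replicate 5 (-0.75, adjusted p = 0.0486). Trpv2 also passed only without that library, at -0.94. By family, the medians were -0.03 over 75 potassium channel subunits, -0.12 over 22 voltage-gated calcium channel genes, -0.20 over 25 TRP, Piezo and TMC genes and 0.02 over 12 sodium channel genes, the last with a sign that changed under 8 of the alternatives (-0.09 without HFD replicate 5).

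Transmitter-gated receptors turn a released transmitter into current. Of 79 tested subunits and partner proteins, 2 fell, Grin2d and Nptxr, against 0.284% lower over all tested genes. None rose past the test. Grin2d encodes the GluN2D subunit of the NMDA receptor, which gives slowly closing channels. It was measured at 24.1, 42.2, 11.7, 20.4 and 38.6 in chow and at 4.83, 5.30, 6.47, 3.60 and 1.87 in HFD, a fall of 2.33 (SE 0.35, adjusted p = 0.0119, limma). The other 4 tested NMDA receptor genes lay close to 0: the obligatory subunit Grin1 at -0.11 (-0.31 without HFD replicate 5), Grin2b at -0.03, Grin3a at -0.13 and the thinly measured Grin2a at 0.31. Nptxr, a membrane-bound pentraxin that helps gather AMPA receptors at synapses, was at 8.62, 12.2, 16.4, 25.7 and 23.5 in chow and at 1.01, 1.91, 3.33, 1.72 and 1.99 in HFD. It fell by 2.56 (SE 0.32, adjusted p = 0.00396, limma), while the secreted pentraxins Nptx1 and Nptx2 were at -0.08 and -0.33 with overlapping groups. HFD replicate 5 was the highest HFD library for both, and without it Nptx1 was at -0.38 (adjusted p = 0.534) and Nptx2 at -0.84 (adjusted p = 0.355, limma).

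Both genes belong to the 12 GC-rich members of the receptor group, and none of the other 67 passed. Those 67 had a median of -0.08 (-0.17 without HFD replicate 5), and the lowest p-values among them were those of Cacng4, an AMPA receptor partner, at -1.03 (SE 0.30, adjusted p = 0.224, limma), and of the nicotinic subunit Chrna5 at -0.92 (SE 0.31, adjusted p = 0.346, limma). Of 11 AMPA, kainate and delta receptor genes 10 were below 0 (median -0.22), and Gria1 passed without HFD replicate 5 (-0.65, adjusted p = 0.0294, limma) but not with it (-0.39). The median over 16 GABA-A and glycine receptor genes was -0.06 with all libraries and -0.18 without HFD replicate 5. Between libraries of 1 diet such a median had an SD of 0.259 for these 16 genes. It was 0.242 for the AMPA, kainate and delta receptor genes.

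G protein-coupled receptors carry the signals of peptides, amines and orphan ligands to cyclases and kinases. Among 268 tested receptor and signalling genes 3 fell, Gpr27, Gpr125 and Prkaca, against 0.284% lower over all tested genes. None rose past the test. Gpr27, an orphan receptor of brain, was measured at 53.83, 56.02, 22.93, 37.5 and 73.1 in chow and at 10.2, 13.3, 12.6, 11.3 and 3.04 in HFD (-2.19, SE 0.36, adjusted p = 0.0162, limma). Its relatives Gpr85 and Gpr173 were at -0.08 and -0.14 (-0.12 and -0.31 without HFD replicate 5). Gpr125, an adhesion-type orphan receptor, was at 29.6, 36.2, 33.2, 35.2 and 41.6 in chow and at 16.9, 15.4, 19.9, 14.5 and 8.57 in HFD (-1.21, SE 0.22, adjusted p = 0.0249, limma). Prkaca encodes the catalytic alpha subunit of protein kinase A, the main effector of cyclic AMP. It stood at 207, 238, 257, 344 and 366 in chow and 94.5, 119, 127, 107 and 43.5 in HFD, and fell by 1.57 (SE 0.26, adjusted p = 0.0166, limma).

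None of these 3 is in the GC-rich set, although each has GC-dense windows (7.16% in Gpr27, 4.50% in Gpr125 and 5.93% in Prkaca). Of the 28 GC-rich members 0 passed, the nearest being the orphan receptor Gpr153 and the alpha-2C adrenergic receptor Adra2c. Gpr153 was at 108, 129, 99.3, 84.7 and 89.9 in chow and at 58.06, 59.96, 49.72, 36.2 and 9.57 in HFD. Its groups did not overlap, and it passed only without HFD replicate 5 (-1.45 and adjusted p = 0.161 with that library, -1.0 and 0.0118 without it, limma). Adra2c was at -1.26 (SE 0.34, adjusted p = 0.202, limma) with overlapping groups. The medians of 46 peptide receptors (-0.02), 33 amine, acetylcholine and purine receptors (0.05) and 44 G protein and RGS genes (-0.06) lay near that of all genes, the first pair with signs that changed under some alternatives. Without HFD replicate 5 they were -0.07, 0.11 and -0.04. Gnb1, a G protein beta subunit picked out after its values were seen, was at -1.17 (adjusted p = 0.0622) and passed without HFD replicate 5 (-0.95, adjusted p = 0.0179, limma). The anchoring protein gene Akap11 lay the other way, at 1.46 (adjusted p = 0.259), and passed without that library (1.84, adjusted p = 0.0257, limma).

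The release machinery docks, primes and fuses vesicles. Of its 128 tested genes 2 fell, Syn2 and Rims4, neither of them GC-rich, against 0.284% lower over all tested genes. None rose past the test. Syn2 encodes a synapsin, which tethers the reserve pool of synaptic vesicles, and was at 188, 198, 231, 271 and 339 in chow and at 99.1, 92.1, 114, 92.1 and 60.6 in HFD. It fell by 1.41 (SE 0.19, adjusted p = 0.00828, limma). Syn1 was at -0.29 with overlapping groups, and at -0.53 (adjusted p = 0.162, limma) without HFD replicate 5, its highest HFD library at 432 against 178 to 195. Syn3 was at -0.64 (SE 0.19, adjusted p = 0.230, limma), where HFD replicate 5 at 99.3 was alone among the chow values of 74.6 to 115. Without that library Syn3 passed too (-0.80, adjusted p = 0.0180, limma).

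Rims4, a small member of the RIM family of active zone proteins, was at 5.95, 10.4, 3.97, 7.21 and 10.6 in chow and at 2.09, 0.13, 1.87, 1.32 and 0.64 in HFD (-1.99, SE 0.34, adjusted p = 0.0194, limma). It is 1 of 4 lower genes with no GC-dense window, and with a pseudocount of 0.1 it did not pass (adjusted p = 0.0675). Unc13b, a vesicle priming factor picked out after its values were seen, was split by HFD replicate 5: chow libraries lay at 540 to 3056, the other HFD libraries at 182 to 372 and HFD replicate 5 at 2765. Its difference was -1.71 (adjusted p = 0.373) with that library and -2.39 (adjusted p = 0.00533, limma) without it. Over 22 genes for granule cargo and peptide processing, the machinery that makes and stores neuropeptides, the median was -0.19 and 0 passed by limma.

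**Figure D2:**
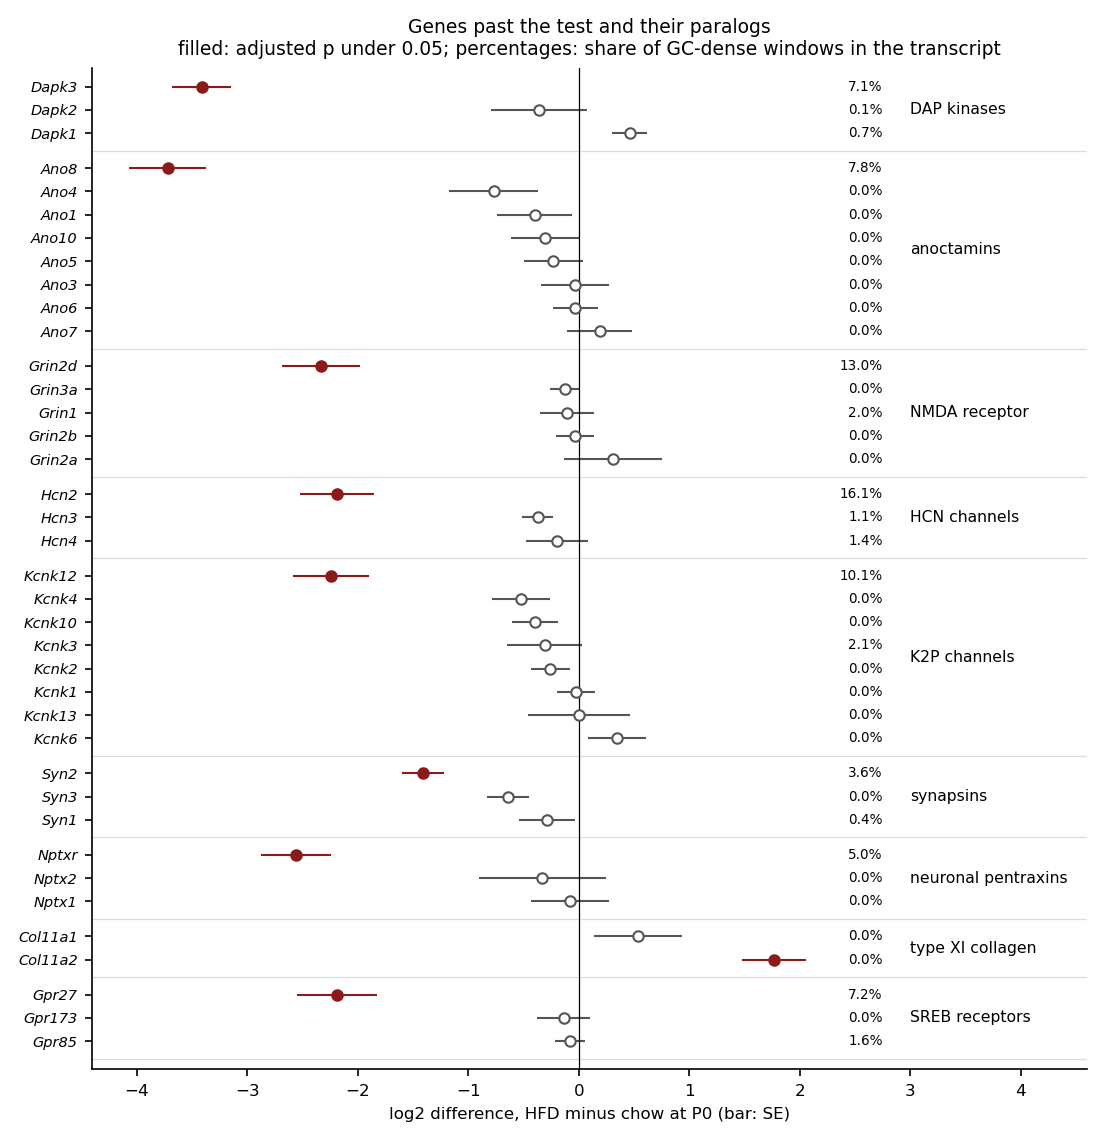
Log2 difference (HFD minus chow at P0) with its standard error for genes past the test (filled) and tested paralogs (open), grouped by protein family, with the share of GC-dense 100-base windows in each transcript at the right. In each family 1 gene is filled and its relatives lie nearer to 0, such as Hcn2 at -2.19 against -0.37 for Hcn3 and -0.20 for Hcn4.

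Adhesion and guidance genes steer growing axons and match synaptic partners. Of 226 tested, 1 passed, against 0.284% lower over all tested genes. That gene was Lrrc47 (-1.81, SE 0.28, adjusted p = 0.0119, limma), which entered the list by its leucine-rich-repeat name and is not known as a guidance molecule. It shares 29.7% of its exonic bases with another gene. The GC-rich Clstn1, a calsyntenin of the synaptic membrane, was at 164, 238, 142, 199 and 379 in chow and at 116, 82.3, 114, 102 and 86.7 in HFD. The groups did not overlap, but the adjusted p was 0.0663 (-1.08, SE 0.23, limma) and 0.0486 without HFD replicate 5. Plxna1, a semaphorin receptor, was at -0.49 and the cadherin Cdh8 at 0.41 (adjusted p = 0.190 and 0.352, limma), neither with overlapping groups. Over 30 semaphorin, plexin and neuropilin genes the median was -0.12, over 21 ephrin and Eph genes -0.007 (above 0 under 3 alternatives) and over 18 Slit, Robo, netrin and Unc5 genes 0.11, the last with a sign that changed under 2 alternatives. Without HFD replicate 5 these medians were -0.20, -0.05 and 0.04.

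Transcription factors were the largest group and leaned the other way. Of 845 tested, limma called 0, and edgeR on recovered reads called 0. An unadjusted p under 0.05 was reached by 36 in the lower and 45 in the higher direction. Over all 14086 tested genes these counts were 762 and 545. Their median difference was 0.09, and 521 (61.7%) were above 0, against 49.6% of all tested genes. The 726 factors outside the GC-rich set had a median of 0.10 and the 119 GC-rich ones a median of -0.002 (0.07 without HFD replicate 5). The median stayed above 0 in every alternative tried for all 845 together, and was 0.12 without HFD replicate 5. By family it was 0.10 over 355 C2H2 zinc finger genes, 0.14 over 109 Sp, Klf, Egr and Gli factors, 0.10 over 79 homeodomain factors (below 0 without chow replicate 5), 0.09 over 35 nuclear receptors and -0.13 over 26 forkhead factors (above 0 with the GC-dense window correction). Without HFD replicate 5 the homeodomain median was 0.20 and the forkhead median -0.05. Both families' medians lay within their spread between libraries of 1 diet (SD 0.311 and 0.296).

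Single factors with the lowest p-values lay on the low side. Cebpb, a leucine-zipper factor of inflammation and metabolism that shares 20.8% of its exonic bases with another gene, was at 7.28, 10.9, 1.16, 2.39 and 9.77 in chow and at 0.72, 1.1, 0.38, 0.40 and 0.06 in HFD (-2.01, SE 0.45, adjusted p = 0.0806, limma). Six3, a homeodomain factor of the developing forebrain, was at 58.5, 79.1, 44.1, 102 and 130 in chow and at 27.99, 44.88, 32.52, 26.5 and 34.7 in HFD. Only HFD replicate 2 reached into the chow range, and the adjusted p was 0.0682 (-1.21, SE 0.26, limma). Without HFD replicate 5 Six3 passed (-1.23, adjusted p = 0.0454, limma). Sox2, a factor of neural progenitors and tanycytes, was at 112.8, 123.2, 93.3, 122.6 and 135.1 in chow and at 57.66, 93.57, 56.89, 60.04 and 23.44 in HFD (-1.11, SE 0.27, adjusted p = 0.123, limma). It too passed without HFD replicate 5 (-0.82, adjusted p = 0.0336), and it has no GC-dense window. Beside Sox2, the marker list of astrocytes, radial glia and tanycytes had 8 of 12 tested members below 0 (median -0.13) with overlapping sums, and its part in the result was not tested. Sox21 was at -1.41 (adjusted p = 0.123, limma) with overlapping groups.

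Without HFD replicate 5, 3 factors were lower (Six3, Sox2 and Jund) and 2 higher. The higher ones were Zbtb22 (0.85, adjusted p = 0.0185) and Usf2, a basic helix-loop-helix factor (0.88, adjusted p = 0.0454, limma). Jund shares 52.6% of its exonic bases with another gene, so its value of -0.86 cannot be told apart from that gene's. With all 10 libraries the groups did not overlap in 5 factors on the low side (0.59%, against 1.71% of all tested genes) and in 6 on the high side (0.71%, against 0.738%). The 6 were Zfp687 (0.65), Tcf3 (0.57), Zfp280b (0.44), Pbx2 (0.42), Arnt2 (0.36) and Stat3 (0.26), named after their values were seen, and none passed the test.

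Chromatin genes leaned the same way as transcription factors, with 119 of 186 above 0 (64.0%) and a median of 0.16. Yet the 2 that passed both fell, against 0.284% lower over all tested genes. All HFD libraries lay below all chow libraries in 8 of the 186 (4.3%, against 1.71% of all tested genes). The reverse held in 3 (1.61%, against 0.738%). H1fx, a linker histone, was at 30.6, 45.4, 22.9, 36.1 and 49.7 in chow and at 6.27, 13.5, 10.9, 8.33 and 2.31 in HFD (-2.15, SE 0.35, adjusted p = 0.0162, limma), and 19.5% of its exonic bases lie in another gene. Kdm1a, a lysine demethylase that removes histone H3 methyl marks, was at 108, 122, 154, 171 and 192 in chow and at 67.6, 82.1, 76.6, 72.0 and 38.1 in HFD. It fell by 1.16 (SE 0.22, adjusted p = 0.0353, limma). Allowing for GC-dense windows, its difference was -0.71 and did not pass (adjusted p = 0.224).

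Another histone demethylase gene, Kdm3a, lay on the other side, at 11.8, 14.8, 19.2, 18.5 and 23.7 in chow and at 26.4, 43.1, 31.8, 31.4 and 38.2 in HFD. Every HFD library was above every chow library, but the adjusted p was 0.0842 (0.94, SE 0.21, limma). The Polycomb gene Phc2 was at -1.10 (adjusted p = 0.0594) and passed without HFD replicate 5 (-0.91, adjusted p = 0.0201, limma). Tet2, which oxidises methylated cytosine, and Ep300, a histone acetyltransferase, passed only without that library, at 0.81 (adjusted p = 0.0424) and 1.20 (adjusted p = 0.0180, limma), both higher. The medians were 0.18 over 112 histone modifiers, 0.20 over 56 remodelling and DNA methylation genes and -0.14 over 18 histone genes.

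RNA processing genes carry transcripts from the polymerase to the cytoplasm. Of 384 tested, 2 fell, Alyref and Pcbp1, against 0.284% lower over all tested genes. None rose past the test (median 0.04, and 0.009 without HFD replicate 5). Alyref, an adaptor for mRNA export, was at 110, 92.6, 86.0, 110 and 123.4 in chow and at 24.8, 29.8, 33.5, 22.3 and 9.10 in HFD (-2.18, SE 0.27, adjusted p = 0.00396, limma). Its exonic GC content of 47.8% is below the median of tested genes (49.42%), although its first exon holds the GC-dense stretch printed above. Pcbp1, a poly(C)-binding protein whose gene is GC-rich, was at -0.93 (SE 0.15, adjusted p = 0.0162, limma), and allowing for GC-dense windows it was at -0.48 and did not pass (adjusted p = 0.398). Hnrnpd, a regulator of mRNA decay, was at -1.05 (adjusted p = 0.0702) with groups that did not overlap, and passed without HFD replicate 5 (-0.86, adjusted p = 0.0386, limma).

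Among 394 kinases, phosphatases and their regulators 1 fell, a share close to the 0.284% of all tested genes. Dapk3, a death-associated protein kinase that acts on myosin light chain, was at 51.7, 56.1, 32.7, 52.1 and 77.1 in chow and at 4.14, 4.62, 6.06, 3.84 and 2.11 in HFD (-3.41, SE 0.27, adjusted p = 3.58e-05, limma). Its relative Dapk1 was at 43.6, 42.8, 54.0, 68.4 and 51.3 in chow and at 77.2, 65.9, 61.3, 70.3 and 82.0 in HFD, a difference of 0.46 that did not pass (SE 0.16, adjusted p = 0.356, limma). Dapk2 was at most 3.39 in these libraries. Of 110 tested protein phosphatase genes, 7 had all HFD libraries below chow (6.36%, against 1.71% of all tested genes) and 0 were past the test. The nearest was Ppp2r5a, a regulatory subunit of PP2A, at -1.34 (SE 0.28, adjusted p = 0.0665, and 0.0486 without HFD replicate 5, limma). Cdk5r2, which activates the neuronal kinase CDK5, was at -1.32 (adjusted p = 0.219) and passed without that library (-0.88, adjusted p = 0.0164, limma), while Map4k3 was at -0.92 (adjusted p = 0.0806, limma). Map2k1, a kinase of the ERK cascade, passed only without HFD replicate 5 (-0.90, adjusted p = 0.0154, limma).

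Small GTPases and their partners direct vesicle traffic. Past the test, 3 of 412 trafficking genes fell, against 0.284% of all tested genes. All 3 were from the 117 genes of small GTPases and their direct partners. Rab12, a GTPase of endosome and lysosome transport, was at 158, 151, 109, 138 and 174 in chow and at 57.2, 67.3, 63.3, 57.1 and 26.7 in HFD (-1.46, SE 0.23, adjusted p = 0.0119, limma). Arf6, which acts at the plasma membrane, was at -1.57 (SE 0.31, adjusted p = 0.0493) and Rab11fip4, an adaptor of recycling endosomes, at -1.42 (SE 0.27, adjusted p = 0.0438, limma). Both sat close to the threshold: without a filter on low values each had an adjusted p of 0.0549. Rac1, a small GTPase of the growth cone, was at -1.28 (adjusted p = 0.0817) and shares 51.4% of its exonic bases with another gene.

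Slc44a1, a choline transporter-like protein, was the 1 lower gene among 351 transporters, a share close to the 0.284% of all tested genes. Its values were tight, at 9.75, 10.6, 11.7, 9.32 and 9.29 in chow and at 2.90, 1.78, 3.43, 3.16 and 1.78 in HFD (-1.65, SE 0.24, adjusted p = 0.0112, limma), and it has no GC-dense window. The calcium pump of the endoplasmic reticulum, Atp2a2, was at -0.73 (SE 0.15, adjusted p = 0.0670) with groups that did not overlap, and at -0.67 without HFD replicate 5 (adjusted p = 0.0486, limma). In protein turnover 2 of 563 fell, again near the share of all tested genes. These were Ube2m, the E2 enzyme that attaches NEDD8 to cullins (-1.88, SE 0.32, adjusted p = 0.0194), and Fam105b, the linear-ubiquitin deubiquitinase also called Otulin (-2.09, SE 0.38, adjusted p = 0.0275, limma). Ube2m ran from 108 to 243 in chow and 18.8 to 76.7 in HFD, and Fam105b from 15.9 to 43.3 and 1.99 to 11.8. Herc2, a ubiquitin ligase, passed only without HFD replicate 5 and was higher (1.04, adjusted p = 0.0337, limma).

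The 1 higher gene lies in the matrix group of 177 genes. Col11a2 was at 0.06, 0, 0.26, 0.28 and 0.52 in chow and at 2.49, 3.35, 2.82, 5.88 and 1.99 in HFD (1.77, SE 0.29, adjusted p = 0.0162, limma), so it was close to the value of a few reads in chow. Col5a3, another fibrillar collagen gene, was at 0.96, 0, 1.64, 2.19 and 0.36 in chow and at 9.77, 2.97, 4.03, 5.00 and 1.58 in HFD. Its groups overlapped and it did not pass (1.44, SE 0.41, adjusted p = 0.219, limma), and Col11a1 was at 0.54. Of 35 collagen genes 11 were below 0, with a median of 0.17 whose sign changed without chow replicate 4. That median lay within its spread between libraries of 1 diet (SD 0.363). The 6 fibroblast and meningeal markers, collagen genes among them, all had differences above 0 (median 0.36) and summed to 118 to 539 in chow and 185 to 582 in HFD, and their part in the Col11a2 result was not tested. Itgb5, an integrin gene, lay low at -1.53 (adjusted p = 0.0622) and passed without HFD replicate 5 (-1.18, adjusted p = 0.00518, limma).

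Limma called 0 genes in 4 further groups. Of 112 growth factor and cytokine genes 15 had an unadjusted p under 0.05, of 206 cytoskeleton genes 17, of 268 translation genes 12 and of 210 energy genes 9, and edgeR on recovered reads called 0 in each. Over all 14086 tested genes 1307 had such a p. Fgf18, a fibroblast growth factor, spanned 6.71 to 10.7 in chow and 1.67 to 4.06 in HFD without overlap (-1.19, SE 0.26, adjusted p = 0.0701, limma). Apc2, a neuronal relative of the Wnt regulator APC, was at 0.68 (adjusted p = 0.367) with overlapping groups. Actr5, an actin-related protein of chromatin remodelling that is listed here by its name, was at -1.20 (adjusted p = 0.0817) and the tubulin-binding stathmin gene Stmn4 at -0.70 (adjusted p = 0.143, limma), the latter past the test without HFD replicate 5 (-0.82, adjusted p = 0.0164). Eef1a2, the neuronal elongation factor, was at -0.80 (adjusted p = 0.126, limma) without overlap. Energy genes leaned low together, with 158 of 210 below 0 (75.2%, against 50.4% of all tested genes), by a median of -0.10 that kept its sign in every alternative tried. Of the 98 genes of oxidative phosphorylation 81 were below 0 (median -0.09), whereas of 84 cytosolic ribosomal protein genes 22 were (median 0.07, with a sign that changed when chow replicate 3 or 5 or HFD replicate 2 was left out). Without HFD replicate 5 these medians were -0.03 and 0.23, and both lay within the spread of such a median between libraries of 1 diet (SD 0.151 and 0.380).

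**Figure D3:**
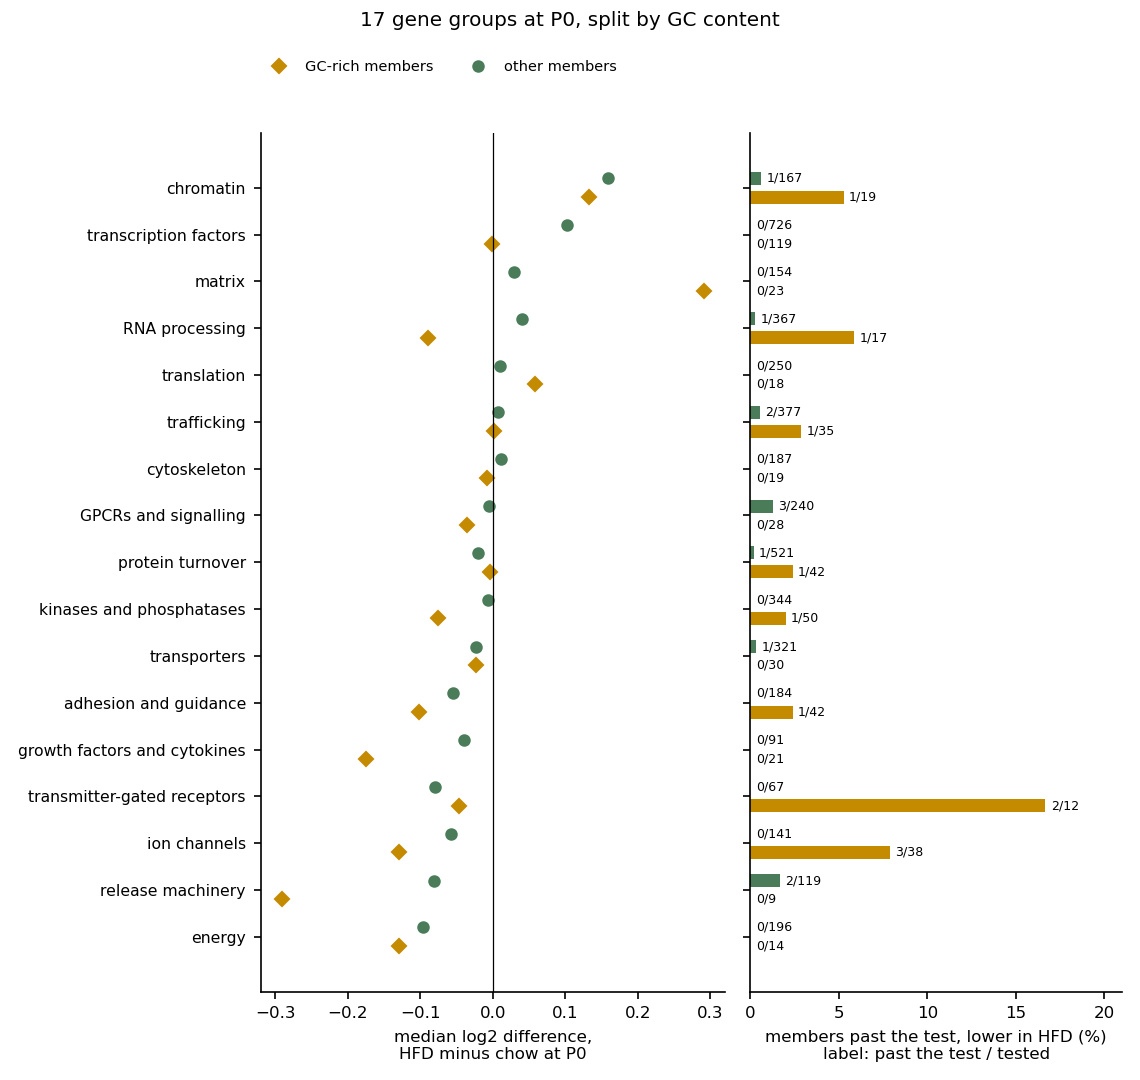
Median log2 difference (HFD minus chow at P0) of 17 gene groups, split into GC-rich members (diamonds) and the rest (circles), and the percentage of members past the test in the lower direction. Transcription factors and chromatin genes outside the GC-rich set lie at 0.10 and 0.16, and energy genes at the other end at -0.10.

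The remaining 18 lower genes were in none of the groups. Mtch1, a protein of the mitochondrial outer membrane, was at 843, 833, 755, 1057 and 1084 in chow and at 265, 396, 366, 276 and 121 in HFD (-1.77, SE 0.26, adjusted p = 0.0119, limma). Evl, an Ena/VASP protein that lengthens actin filaments in growth cones, was at 185, 214, 161, 202 and 205 in chow and at 81.7, 103, 112, 89.1 and 58.3 in HFD (-1.14, SE 0.17, adjusted p = 0.0119, limma). It is GC-rich but has no GC-dense window. Vstm2l, a secreted immunoglobulin-domain protein, fell by 1.77, the transmembrane protein genes Tmem158 and Tmeff1 by 1.84 and 1.43, and the neurogenesis regulator Trnp1 by 1.68. The transcriptional inhibitor Eid2 fell by 2.08, the centromere protein gene Cenpv by 1.60, the coenzyme Q-binding Coq10a by 1.63, the adaptor gene Shc2 by 1.58 and the glycan-trimming enzyme gene Mogs by 1.43. Btbd2 fell by 1.22, Ttll11 by 1.28, Pex6, a peroxisome biogenesis gene, by 1.23 and Ankrd40 by 1.06.

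Another 2 of the 18 share exons heavily with other genes: Smap1 (58.1% of exonic bases, -1.63) and Pdxp (45.1%, -1.53). Lrrc47, H1fx, Nptxr (17.2%) and Arf6 (13.6%) also share over 10%. Whether counting used the strand is not given in the sources used here, so for these 6 genes reads of the overlapping gene cannot be told apart from their own.

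By exonic GC content, 21 of the 40 lower genes and the 1 higher gene lay among the 1399 GC-rich genes, and 19 among the 12582 others with a GC value. Across 5 equal bands of GC content, from low to high, the share of genes with all HFD libraries below all chow libraries was 1.00%, 1.47%, 1.61%, 1.54% and 3.00%, highest in the top band. GC-dense windows separated the genes further. Of 726 GC-rich genes without such a window 1 was lower and 1 higher, and of 651 GC-rich genes with one 20 were lower. Outside the GC-rich set, 16 of 2786 genes with a window and 3 of 9368 without one were lower. These counts have no test, because the windows were examined after the calls.

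The share of non-overlapping lower genes grew with the share of GC-dense windows. It was 0.71% in the 10094 genes with none, 5.49% in the 674 genes ranked between the 90th and 95th percentile, 12.04% in the 407 between the 95th and 98th and 20.3% in the 271 genes of the top 2%. The share of non-overlapping higher genes was 0.77%, 0.74%, 0.25% and 0% in the same sets. In the top 2% the median difference was -0.53, or -0.38 without HFD replicate 5. Of the gene-group members whose libraries did not overlap, 71 of 97 on the low side and 9 of 25 on the high side had a GC-dense window, against 1390 of 4943 tested members. The lower genes had a median exonic length of 3114 bases, against 4508 for all tested genes, and the first 150 coding bases had a median GC content of 75% against 57.3%.

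**Figure D4:**
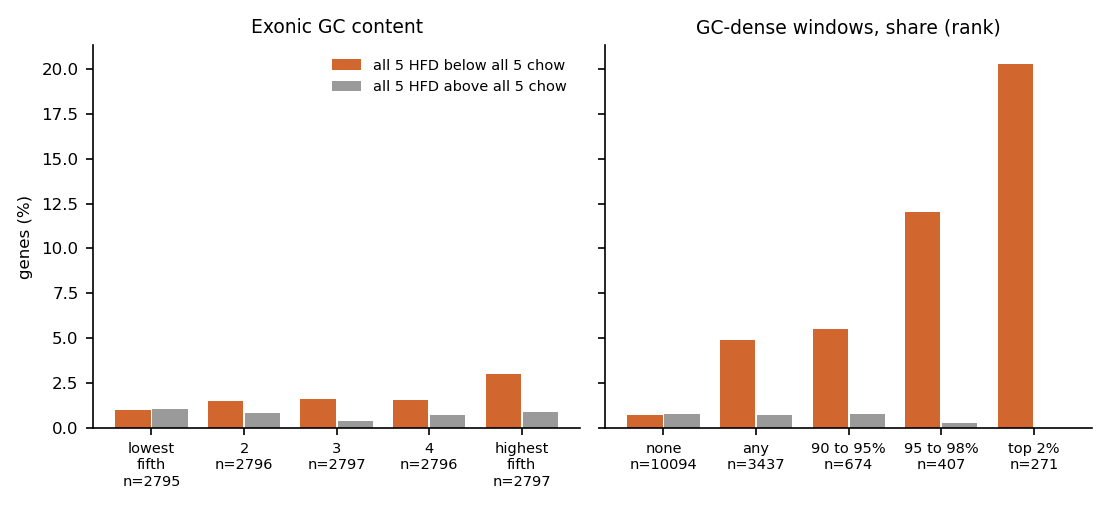
Percentage of genes with all 5 HFD libraries below all 5 chow libraries (orange) or above them (grey) at P0, by 5 equal bands of exonic GC content and by the rank of the share of GC-dense windows. The orange bars rise from 0.71% in genes with no GC-dense window to 20.3% in the top 2%, where the grey bar is at 0.

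The position of such genes also varied between libraries of the same diet. The median of GC-rich genes minus that of the other genes was -0.112 in chow and -0.208 in HFD (mean of 5 libraries each), and the difference of -0.095 had p = 0.325 in a two-sided exact permutation test over all labelings of the 10 libraries, where the smallest possible p is 0.00794. HFD replicate 5 stood at -0.523 and the other HFD libraries at -0.211 to -0.071, and without it the difference was -0.016. For the top 2% by GC-dense windows the same measure was 0.31, 0.40, -0.24, -0.06 and 0.16 in chow and -0.34, 0.00, -0.30, -0.36 and -1.49 in HFD. The groups overlapped, with chow replicates 3 and 4 below HFD replicate 2, and the mean difference was -0.61 with HFD replicate 5 and -0.36 without it. When the fit allowed for exonic GC content, 38 of the 41 genes still passed, and when it allowed for GC-dense windows, an alternative added after the data were seen, 34 did. The part of GC content in the diet difference was not tested beyond these values.

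**Figure D5:**
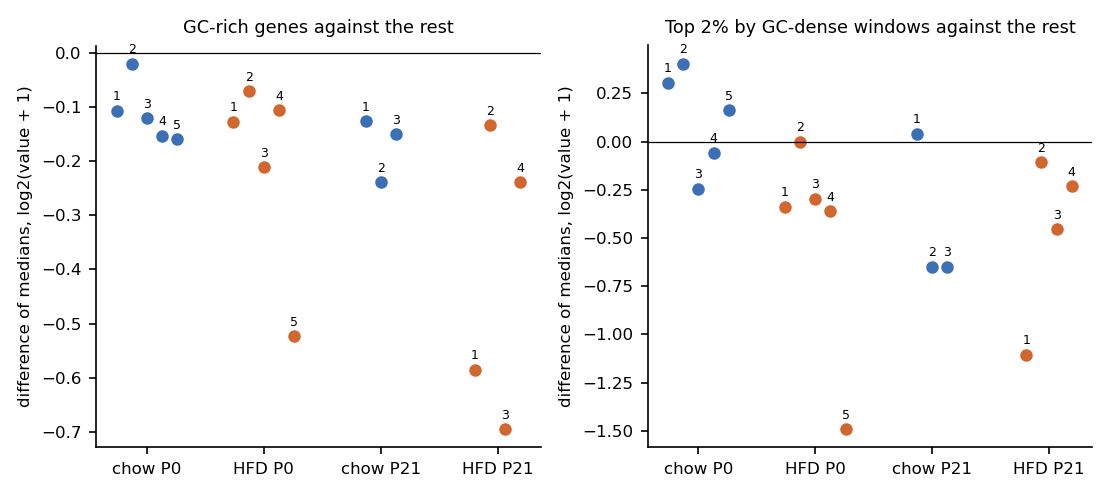
Median log2(value + 1) of GC-rich genes minus that of the other tested genes (left), and of the top 2% of genes by GC-dense windows minus that of the rest (right), 1 point per library with its replicate number, chow in blue and HFD in orange. HFD replicate 5 at P0 lies lowest in the right panel at -1.49, and HFD replicate 1 at P21 next at -1.11.

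At P21 most of the 40 lower genes were not below chow: the HFD minus chow difference was below 0 in 11 of them. Limma called 25 genes at P21 and 0 at both ages, but 0 of the 40 passed the test of diet by age, so a difference between the ages was not shown for them with all libraries. That count depended on single libraries: it was 21 without HFD P21 replicate 1, 7 without chow P21 replicate 1, 6 without HFD P0 replicate 5 and 2 with the replicate block, in each case with the difference lower at P0, and 0 when any other library was left out. Instead the P21 libraries spread widely within each diet: HFD replicate 1 was the lowest of the 4 HFD libraries in 37 of the 40 genes and chow replicate 1 the highest of the 3 chow libraries in 38. Hcn2 was at 38.1, 14.8 and 15.03 in chow and at 2.74, 36.2, 13.8 and 42.7 in HFD at P21, and Prkaca at 471, 323 and 214 and at 98.95, 536, 336 and 566. Mtch1 ran in the same order of libraries as Prkaca, at 1340, 678 and 420 in chow and at 266, 1313, 1023 and 1329 in HFD. HFD replicate 1 was also the P21 library with the lowest level of the top 2% of genes by GC-dense windows, and whether the 2 are related was not tested.

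The test of diet by age (HFD minus chow at P0, minus the same at P21) called 4 of 15037 genes (0.0266%), with 2290 at an unadjusted p under 0.05. The count was 557 (301 lower, 256 higher) without HFD P0 replicate 5 and 133 with the replicate block. Of the genes past the test at P0 only Col11a2 was among them. It was at 5.43, 8.90 and 10.9 in chow and at 3.4, 3.9, 2.68 and 3.46 in HFD at P21, all 4 HFD libraries below all 3 chow libraries, the reverse of P0. The diet difference at P0 exceeded that at P21 by 2.84 (SE 0.40, adjusted p = 0.00618, limma). The other 3 were Heatr8 (-2.21, adjusted p = 0.0062), Hepacam, an adhesion protein of glia (1.79, adjusted p = 0.0106), and Tmtc4 (-2.14, adjusted p = 0.0314, limma).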

How the data were processed

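Per the labels' protocols, RNA from tagged ribosomes was made into Nextera XT libraries and read on a HiSeq as single reads of 50 bases. The submitters' processing notes name TopHat2 2.0.13, Picard 1.80, HTSeq 0.6.1, FastQC and edgeR and the mouse build mm10. Their settings, annotation and strand use were not given in the sources used here. What the authors deposited is a normalised signal per gene, close to CPM but scaled per library (column sums of 0.908 to 1.055 M at P0). In 5 P0 libraries low values were whole multiples of 1 read for 99.65% or more of values, within 0.126 reads, and there reads were recovered. The table also has 15 empty columns, which were not used.

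Since the table holds no raw counts, limma 3.58.1 (R 4.3.3, trended prior, two-sided, Benjamini-Hochberg at 0.05) was run on log2(value + 1) over the 10 P0 libraries, for the 14086 genes with a value above 1 in at least 5 libraries. Another 1269 genes were not tested. The quasi-likelihood test of edgeR 4.0.16 on recovered reads was an alternative. Diet by age was an interaction term over 17 libraries. Scripts were tested on simulated data. GC content and coordinates come from GENCODE M21 on GRCm38, in which 15221 of 15355 symbols (99.13%) matched.

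Genes were grouped into 73 families in 17 groups by symbol. The members, lists and families were chosen with earlier results of these data known. The 122 genes named by rule are those past the test, Pomc, Cartpt, Agrp and Npy, the 2 GC-rich and the 2 other members with the lowest p in each group, paralogs of 9 gene stems, and genes past both the P0 and the interaction test; a few of them are not reported here. Genes named because their libraries did not overlap, or because they passed only without HFD replicate 5, were chosen after their values were seen. Alternatives covered the pseudocount, the filter, normalization, GC content, the replicate block, all 17 libraries in 1 fit and leaving out each library. Counts without HFD replicate 5 for the groups, the GC-dense window correction and limma on the libraries with recovered reads were added after the data were seen.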

Additional observations from a re-analysis of the deposited data

Results flagged for a closer look

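In 19 of the 242 groups of 5 libraries checked for the named genes and the GC gap, 1 library lay far from the others. A chance of 1 in 20 would give 12.1, but only for independent groups with normally distributed values. Gene values were checked without logarithms, and the outlying library was the highest in 16 of the 19. So 19 against 12.1 does not show an excess. HFD replicate 5 was the outlying library in 11 of the 19. It was the highest HFD library for Pomc at 1057 (others 90.7 to 246), Agrp at 25.6 (4.11 to 8.31), Npy at 179 (62.9 to 81.1), Nptx1 at 45.6 (11.1 to 19.8), Nptx2 at 309 (37.0 to 76.4) and Gpr173 at 18.8 (9.21 to 10.9). It was also the highest for Syn1 at 432 (178 to 195), Syn3 at 99.3 (52.2 to 63.3) and the glycolytic enzyme gene Aldoa at 713 (516 to 560). It was the lowest for Rab12 at 26.7 (57.1 to 67.3) and Tmeff1 at 63.0 (160 to 194).

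Other HFD libraries stood out for Ano8, where replicate 3 was at 4.35 (0.68 to 1.52), and for the deubiquitinase gene Josd2, where replicate 2 was at 6.74 (5.62 to 5.83). Among chow libraries, replicate 5 was low for the tRNA synthetase gene Wars2 at 6.09 (8.49 to 9.40) and high for the mevalonate kinase gene Mvk at 91.7 (74.8 to 79.5). Replicate 3 was high for Cartpt at 105.6 (7.21 to 22.1) and Col11a1 at 10.2 (1.12 to 3.69), and replicate 2 for Apc2 at 480 (236 to 290) and Kcnk6 at 4.44 (2.29 to 2.64).

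The diet difference of Col11a2 differed between the ages by 2.84 on the log2 scale (adjusted p = 0.00618 by the limma interaction test).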

How the results depend on the processing

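The 41 genes past the test at P0 kept their direction in every alternative in which they were fitted. In the 22 alternatives outside the subset of 5 libraries, 7 (Alyref, Ano8, Evl, Grin2d, Slc44a1, Syn2 and Col11a2) stayed past the threshold in each, Col11a2 being left out where a mean above 5 was asked for. In that subset limma kept 20 of the 41 and edgeR 3 (Alyref, Ano8 and Dapk3). The count was 38 to 48 under other pseudocounts, filters, normalizations, priors and the GC correction, and 53 (47 lower, 6 higher) with the GC-dense window correction. It was 10 with all 17 libraries in 1 fit, 3 by edgeR on the reads of 5 libraries and 24 by limma on the same 5. Leaving out 1 library gave 18 (chow replicate 5) to 135 (HFD replicate 5); leaving out chow replicate 2 gave 23, chow replicate 4 and HFD replicate 4 gave 24 each, and HFD replicate 1 gave 21. GC-rich calls numbered 22, and 5 with all libraries in 1 fit, 2 by edgeR and 13 with the GC-rich set drawn at a GC content of 60 percent or more. With 1 library left out they numbered 11 (chow replicate 5) to 42 (HFD replicate 5), 13 for chow replicate 2 and 12 for HFD replicate 1. The interaction count of 4 went to 2 when chow P21 replicate 2 was left out and to 557 when HFD P0 replicate 5 was, with 47 for chow P21 replicate 1, 36 for HFD P21 replicate 1 and 14 for HFD P21 replicate 2. The difference in the GC gap lay between -0.13 (HFD replicate 2 left out) and -0.016 (HFD replicate 5 left out) when 1 library was left out, and was -0.16 for genes with a GC content of 60 percent or more. Replicate numbers are not stated to pair libraries. Same-numbered libraries correlated at 0.188, 0.288, -0.046, -0.178 and 0.507 in their deviations, and differently numbered ones at -0.496 to 0.395. Whether same-numbered libraries share more than a number was not tested. The replicate block gave 104 calls at P0 (88 lower, 16 higher), 38 of them GC-rich, and 133 for the interaction, and with the GC correction 64 (56 lower, 8 higher) at P0. The cause of these changes was not tested. The median over all genes stayed between -0.01 and 0.014. With 22.7 to 34.9 M reads a library, genes of a few units, such as Col11a2 in chow, rest on few reads.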
